A study of Homo sapiens with 3 samples.

Results

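BiP, the product of HSPA5, is the HSP70 chaperone of the endoplasmic reticulum (ER), and 10 genes of its working cycle were followed through a series on HT29 cells, an established line of human colorectal cancer. The 10 genes were HSPA5, HYOU1, DNAJB9, DNAJC3, DNAJB11, DNAJC10, SDF2L1, FICD, MANF and CRELD2. They were chosen by name with their signals in this series already known, so their ratios to DMSO are a description and support nothing about the group as a whole. Each gene was represented by 1 spot, giving 10 genes out of 18639 named on the array. All 10 passed the detection limit on every array, a low limit that between 85.6% and 86.2% of all gene probes passed, depending on the array. The cells had been kept for 24 h in medium with DMSO, the solvent given as control, or with a derivative of linderapyrone at 5 µM or 20 µM. The structure of the derivative is not stated by the labels. Each group held 1 array, which carried Cy5-labelled RNA amplified from total RNA, and the stated purpose was to find genes whose expression differs from DMSO. The labels name the dose in mM in the titles and in µM elsewhere, and µM was taken.

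Folding of secreted and membrane proteins in the ER relies on BiP, which grips exposed hydrophobic stretches in its ADP-bound state and lets go when ADP is exchanged for ATP. Proteins with a J domain bring clients to BiP and trigger its ATP hydrolysis, while nucleotide exchange factors such as HYOU1 reset it. When unfolded proteins pile up, BiP is drawn away from the stress sensors ATF6, IRE1 and PERK, and the transcription factors that follow raise chaperone genes, a programme known as the unfolded protein response (UPR). ATF6 with the CCAAT-binding factor NF-Y acts on the ER stress element (ERSE) in the promoters of many of these genes.

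The arrays differed in overall brightness. For DMSO, 5 µM and 20 µM in turn, median spot signals of 117, 107 and 110 stood against detection limits of 82.5, 79.4 and 80.2. Before any scaling, the median log2 ratio to DMSO over all genes was -0.32 at 5 µM and -0.15 at 20 µM, after the blank level had been taken off. Log2 ratios below are therefore from signals corrected for background with an offset of 50 and brought to a common distribution. They understate differences of dim spots, which bears most on FICD, HYOU1 and HSPA5, so values from the authors' table, which were not given that offset, stand beside the ratios. The limit was low, and 86.2%, 85.6% and 85.7% of all gene probes passed it on the DMSO, 5 µM and 20 µM arrays. Passing it therefore says little about which cells were present. Colon epithelial markers were detected on all arrays in 7 of 7 cases that had a spot. Of 10 markers of other cells, COL1A1, COL1A2, PTPRC, PECAM1 and ALB stayed under the limit on every array, while DCN, CD3E, CD14, VWF and APOA1 exceeded it on all of them, DCN and CD3E with 1 of their 2 probes each. With 1 array per group there was no test and no spread between cultures. The only error available was technical. Pairs of probes for the same gene gave a log2 ratio an SD of 0.15 for 20 µM against DMSO, 0.11 for 5 µM against DMSO and 0.12 between the doses. Both probes of a pair were read on the same arrays, so this SD leaves out any error that they share, such as one of labelling. In RNA from a whole culture, fewer cells that express a gene and less RNA per cell cannot be told apart.

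All 10 genes had higher spot signals at both doses than in DMSO, with no scaling at all. After normalization, 52.8% of all genes lay above DMSO at 20 µM and 52.0% at 5 µM. At 20 µM, 6 of the 10 had a normalized signal at least 2-fold above DMSO, namely DNAJB9, SDF2L1, FICD, DNAJC3, MANF and DNAJC10. Among all 16062 genes detected on both arrays, 71 were that much higher, or 0.442%, and 52 that much lower, or 0.324%. At 5 µM the count was 5 of 10, without DNAJC10, against 8 of 16075 genes, or 0.0498%; 1 gene, or 0.00622%, was that much lower. The median log2 ratio of the 10 genes was 1.07 at 20 µM and 0.94 at 5 µM, while that of all genes was 0.0071 and 0.0043. Because the genes were chosen with these ratios known, nothing is read from the difference between the counts and the background. The doses share the DMSO array, so a DMSO spot that read low would raise both ratios of its gene.

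**Figure D1:**
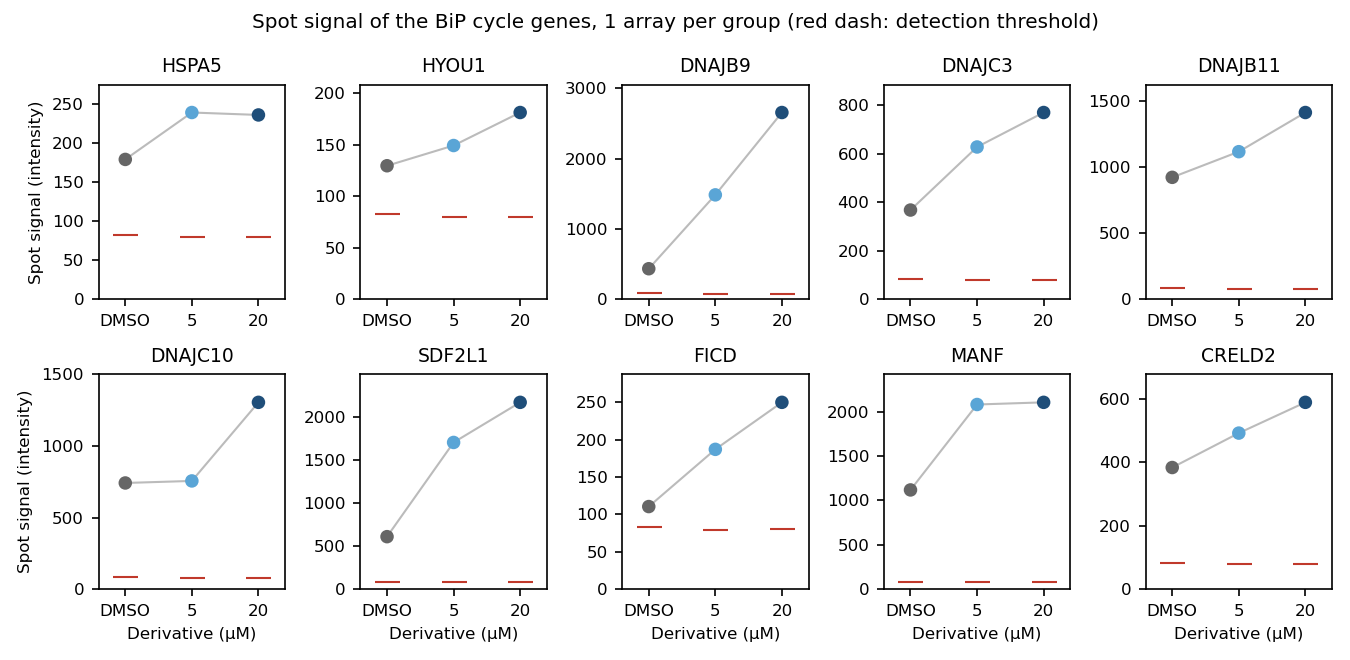
Spot signal of each gene (vertical axis, linear intensity from 0, own scale per panel) on the DMSO, 5 µM and 20 µM arrays (horizontal axis), 1 point per array with no error bar; red dashes are the detection limits. Every gene lies above its DMSO point at both doses; HSPA5 and MANF are level between the doses, and DNAJC10 is level between DMSO and 5 µM.

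The promoters of the 10 genes were searched for elements known from the UPR, because the genes lay on the same side of DMSO. The search covered the RefSeq promoters of build GRCh38.p14 from 250 bases before to 50 bases after the annotated start, on both strands. Positions count back from the start, with -1 the base before it. The full ERSE, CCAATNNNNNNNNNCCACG, was present in 3 of the 10 genes and in 27 of 35116 promoters, or 0.0769%. Its compact form ERSE-II, ATTGGNCCACG, was present in 2 of 10 and in 0.0541% of promoters. The bare CCAAT box, which is the first part of the ERSE and lies reversed in ERSE-II, was in all 10 genes, against 34.6% of promoters. The core CCACG, the other part of both elements, was in 9 of 10 against 38.1%, and DNAJB11 was the gene without it. The UPR element, searched as TGACGTG, was in HYOU1 and DNAJC10 and in 1.97% of promoters. Shares were somewhat higher among the 12536 genes with a promoter that were detected on all arrays. They were 0.128% for the ERSE, 0.0957% for ERSE-II, 36.5% for CCAAT, 46.4% for CCACG and 2.39% for the UPR element. These are matches of letters, not measured binding. The elements were already known from UPR genes and the 10 genes were chosen by name. Nothing is therefore read from the difference between their counts and these shares.

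**Figure D2:**
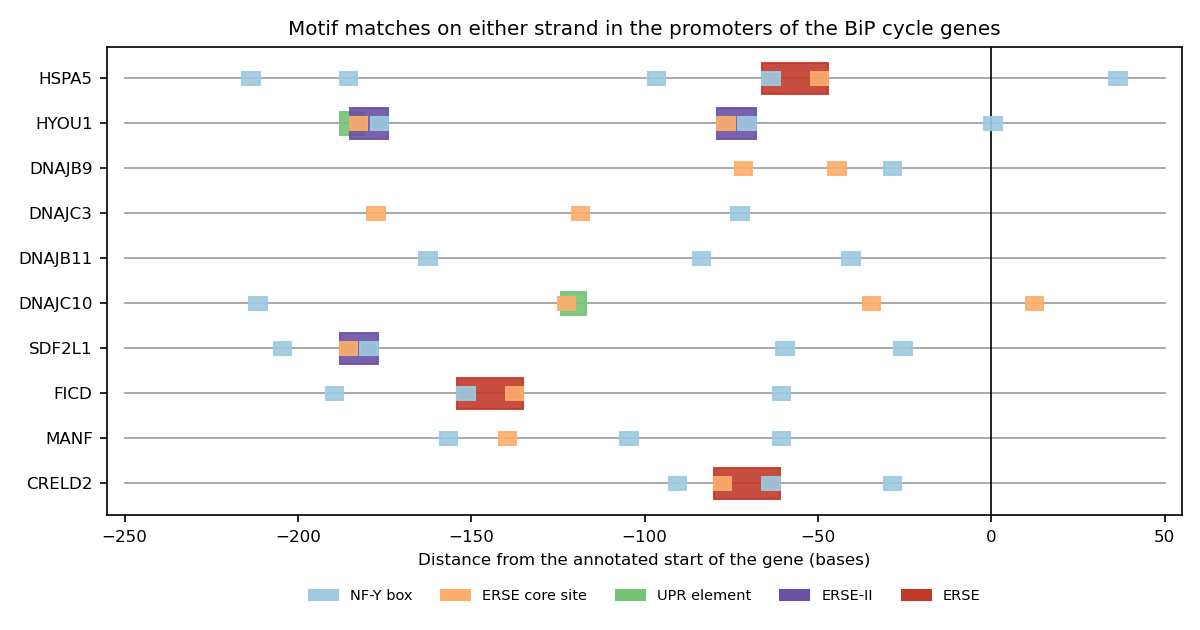
Motif matches on either strand by distance from the annotated gene start in bases (horizontal axis), 1 row per gene; NF-Y box marks the CCAAT box and ERSE core site the CCACG core, both drawn over the longer elements that contain them. ERSE matches lie in HSPA5, FICD and CRELD2, ERSE-II matches in HYOU1, with 2, and SDF2L1.

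HSPA5, the chaperone itself, and HYOU1, a large HSP70 relative that acts as its nucleotide exchange factor, had moderate ratios at both doses. The HSPA5 spot read 179 (DMSO), 240 (5 µM) and 236 (20 µM), so the step came with the lower dose. Its log2 ratio to DMSO was 0.74 ± 0.11 (technical SD) at 5 µM and 0.60 ± 0.15 at 20 µM, a fold of 1.67 and 1.52. In the authors' value table it stood at 47.1 with DMSO, 94.2 with 5 µM and 84.6 with 20 µM. The DMSO spot was only 2.18 times the detection limit, so the offset weighs on this gene. HYOU1 read 129, 149 and 181, higher at each step. Its log2 ratio was 0.45 at 5 µM and 0.71 at 20 µM. The DMSO spot of HYOU1 stood at 1.57 times the limit, and the authors' value table gave folds of 1.78 and 2.35, so in that table the gene was past 2-fold at 20 µM and above MANF, DNAJC10, CRELD2 and DNAJB11. The promoters of both genes are shown because they carry the elements described above. HSPA5 holds 1 ERSE from -66 to -48 on the strand of the gene, at chr9:125241294-125241593 on the minus strand. HYOU1 holds ERSE-II at -185 to -175 and at -79 to -69, both reversed, at chr11:119057156-119057455 on the minus strand. The 5′ to 3′ sequences follow the gene, with the elements in capitals.
HSPA5: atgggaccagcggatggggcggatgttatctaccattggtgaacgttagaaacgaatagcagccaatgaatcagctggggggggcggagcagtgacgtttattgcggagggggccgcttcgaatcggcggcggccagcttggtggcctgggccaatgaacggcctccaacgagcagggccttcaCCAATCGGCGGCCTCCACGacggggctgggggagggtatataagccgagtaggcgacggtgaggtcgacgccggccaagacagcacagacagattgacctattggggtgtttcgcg
HYOU1: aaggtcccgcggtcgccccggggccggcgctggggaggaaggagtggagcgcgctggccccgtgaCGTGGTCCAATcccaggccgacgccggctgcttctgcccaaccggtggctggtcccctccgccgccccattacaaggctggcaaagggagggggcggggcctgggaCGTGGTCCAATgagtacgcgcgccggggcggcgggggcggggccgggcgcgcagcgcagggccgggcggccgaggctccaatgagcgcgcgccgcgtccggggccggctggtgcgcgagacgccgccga

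The ratios of the J-domain proteins lay far apart. DNAJB9 (ERdj4), which brings BiP to the stress sensor IRE1 and serves ER-associated degradation, had the highest ratio of normalized signal among the 16062 genes at 20 µM and among the 16075 at 5 µM. Its spot read 434 with DMSO, 1484 with 5 µM and 2655 with 20 µM. The log2 ratio was 2.21 ± 0.11 (technical SD) at 5 µM and 2.85 ± 0.15 at 20 µM, or 4.62-fold and 7.19-fold. The authors' value table gave 4.86-fold and 8.18-fold. Of the log2 difference seen at 20 µM, 77.6% was present at 5 µM. The promoter, at chr7:108569624-108569923 on the plus strand, is shown because the gene with the highest ratio had neither ERSE form in this window. Capitals mark its CCAAT box at -31 to -27 and the CCACG cores at -74 to -70 and, reversed, at -47 to -43.
DNAJB9: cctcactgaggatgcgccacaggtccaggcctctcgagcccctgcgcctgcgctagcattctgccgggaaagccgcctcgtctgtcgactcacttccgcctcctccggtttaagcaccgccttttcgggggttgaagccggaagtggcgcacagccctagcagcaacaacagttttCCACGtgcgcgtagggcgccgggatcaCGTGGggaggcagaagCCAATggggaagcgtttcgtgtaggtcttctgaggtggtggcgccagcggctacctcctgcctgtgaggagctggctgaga

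DNAJC3 (p58IPK), a co-chaperone of the ER lumen first known as an inhibitor of the kinase PKR, read 368, 628 and 770. Its log2 ratio was 1.13 at 5 µM and 1.28 at 20 µM, so 88.1% of the difference was there at the lower dose, and the authors' folds were 2.34 and 2.70. Scaling the arrays by their medians gave 0.95 at 5 µM, short of 2-fold. DNAJB11 (ERdj3), which binds unfolded clients and passes them to BiP, read 923, 1117 and 1414. Its ratios of 0.63 and 0.82 were below 2-fold at both doses, as were the authors' folds of 1.51 and 1.78. Median scaling gave 0.41 at 5 µM. DNAJC10 (ERdj5), a disulfide reductase with a J domain, had most of its difference at the higher dose. It read 741 in DMSO and 756 at 5 µM, then 1305 at 20 µM. The log2 ratio was 0.37 at 5 µM and 1.03 at 20 µM, with authors' folds of 1.25 and 2.08. The 5 µM ratio was the lowest of the 10, but the technical error does not tell it apart from HYOU1 at 0.45. Median scaling gave 0.16 at 5 µM. Only 36.1% of its difference at 20 µM was present at 5 µM. Its call at 20 µM depended on the scaling, since median scaling gave 0.91.

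SDF2L1, a partner of DNAJB11 that keeps clients soluble through the BiP cycle, had ratios past 2-fold at both doses. Its spot read 609 with DMSO, 1702 with 5 µM and 2168 with 20 µM. The log2 ratio was 1.88 ± 0.11 (technical SD) at 5 µM and 2.05 ± 0.15 at 20 µM, or 3.67-fold and 4.13-fold, and 91.6% of the difference was present at the lower dose. The authors' value table gave 3.76-fold and 4.44-fold. FICD, the enzyme that attaches AMP to BiP and takes it off again, had a dim spot that read 110, 187 and 250. In DMSO it was 1.34 times the detection limit, the lowest such value in the group. The log2 ratio was 1.13 at 5 µM and 1.49 at 20 µM, or 2.19-fold and 2.82-fold. For this gene the scale mattered most. The authors' value table gave 4.42-fold and 6.37-fold, above SDF2L1 at both doses, and an offset of 16 in place of 50 gave log2 ratios of 1.61 and 2.05. Without background correction the 5 µM ratio was 0.93, under 2-fold. The promoter of SDF2L1 lies at chr22:21642052-21642351 on the plus strand and holds a reversed ERSE-II at -188 to -178. That of FICD, at chr12:108515027-108515326 on the plus strand, holds an ERSE at -154 to -136. Both are printed with these elements in capitals.
SDF2L1: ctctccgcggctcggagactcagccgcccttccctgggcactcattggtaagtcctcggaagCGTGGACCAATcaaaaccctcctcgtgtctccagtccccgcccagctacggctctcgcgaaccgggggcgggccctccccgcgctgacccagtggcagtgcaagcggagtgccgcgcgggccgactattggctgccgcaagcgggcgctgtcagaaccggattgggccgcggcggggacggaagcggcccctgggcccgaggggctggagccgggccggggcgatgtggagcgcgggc
FICD: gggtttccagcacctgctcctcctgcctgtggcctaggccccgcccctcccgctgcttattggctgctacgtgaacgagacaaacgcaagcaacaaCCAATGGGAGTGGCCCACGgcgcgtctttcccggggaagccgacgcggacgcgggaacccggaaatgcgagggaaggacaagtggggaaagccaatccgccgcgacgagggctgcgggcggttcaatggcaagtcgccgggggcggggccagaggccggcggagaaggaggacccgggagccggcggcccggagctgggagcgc

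MANF and CRELD2 are small proteins of the ER that can also be secreted under stress. MANF, which binds BiP and slows its nucleotide exchange, read 1117 with DMSO, 2080 with 5 µM and 2104 with 20 µM. The treated arrays gave almost the same signal. The log2 ratio was 1.25 ± 0.11 (technical SD) at 5 µM and 1.11 ± 0.15 at 20 µM, and the authors' folds were 2.36 and 2.19. CRELD2, reported to act on disulfide bonds, read 384, 493 and 590. Its ratios of 0.70 and 0.83 stayed under 2-fold, as did the authors' folds of 1.67 and 1.89. The CRELD2 promoter at chr22:49918384-49918683, plus strand, is shown because it overlaps the promoter window of another gene. Its ERSE, reversed, spans -80 to -62 and is in capitals.
CRELD2: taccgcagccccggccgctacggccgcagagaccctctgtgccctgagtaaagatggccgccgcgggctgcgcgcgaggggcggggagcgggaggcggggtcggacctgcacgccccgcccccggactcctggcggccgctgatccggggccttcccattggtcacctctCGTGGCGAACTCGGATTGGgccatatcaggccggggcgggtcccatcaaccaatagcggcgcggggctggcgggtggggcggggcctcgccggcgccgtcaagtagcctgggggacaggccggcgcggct

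This window overlaps by 295 bases with the promoter of ALG12, a mannosyltransferase gene on the opposite strand, so that both windows contain the same ERSE. ALG12 read 113 with DMSO, 105 with 5 µM and 106 with 20 µM. Its log2 ratio was 0.016 at 5 µM and -0.031 at 20 µM, where CRELD2 had 0.70 and 0.83. The ALG12 spot was dim, and the difference between the genes was not tested. ALG12 was singled out after its values were seen.

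The 5 genes with an ERSE or ERSE-II include the 3 spots nearest to their detection limit in DMSO, so their order against the other 5 can depend on the scale. At 20 µM their log2 ratios ran from 0.60 to 2.05 with a median of 0.83, and those of the other 5 from 0.82 to 2.85 with a median of 1.11. In the authors' table, as log2(value + 1), the order of the medians turned, with 1.20 for the genes with an element and 1.13 for the others. At 5 µM the order did not turn. The medians there were 0.74 with an element and 1.13 without, and 0.98 and 1.22 in the authors' table. Beyond the 10, the array measured 13 other genes with an ERSE in the window. Their median log2 ratio was 0.20 at 20 µM and 0.095 at 5 µM, and 1 of the 13 was at least 2-fold higher at 20 µM. That gene was SERP1, at 1.27, named after its value was seen. The mean over its 2 probes was 0.64, so its other probe lay near DMSO. Among 10 other genes with ERSE-II, a ratio past 2-fold was found for 1 gene, at both doses. It was HERPUD1, an ER membrane protein of the degradation machinery. The median log2 ratio of these 10 genes was 0.058 at 20 µM, with 6 of them above 0. For 5 µM it was -0.0055, with 4 above 0. The shares of all genes past 2-fold above DMSO were 0.442% for 20 µM and 0.0498% for 5 µM.

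The order of the genes was compared with the technical error. For 20 µM against DMSO, the difference of 2 log2 ratios had an SD of 0.21. DNAJB9 stood 0.80 above SDF2L1, and SDF2L1 0.55 above FICD, both more than 2 such SDs. The latter gap depends on the offset, since an offset of 16 gave 2.12 for SDF2L1 and 2.05 for FICD, and the authors' values gave 2.15 and 2.59. From FICD down to HSPA5 each gene was closer than that to its neighbour, so neighbours there are not told apart. At 5 µM, DNAJB9, SDF2L1 and the set of MANF, FICD and DNAJC3 were separated by gaps of 0.33 and 0.62. A gap of 0.39 lay below DNAJC3, between it and HSPA5. Probe pairs at least as bright as the dimmest of the 10 genes had a technical SD of 0.14 at 5 µM, and with that SD only the gap of 0.62 exceeded 2 SDs of a difference. In the authors' table FICD, at 2.07, left that set and stood above SDF2L1, at 1.91.

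**Figure D3:**
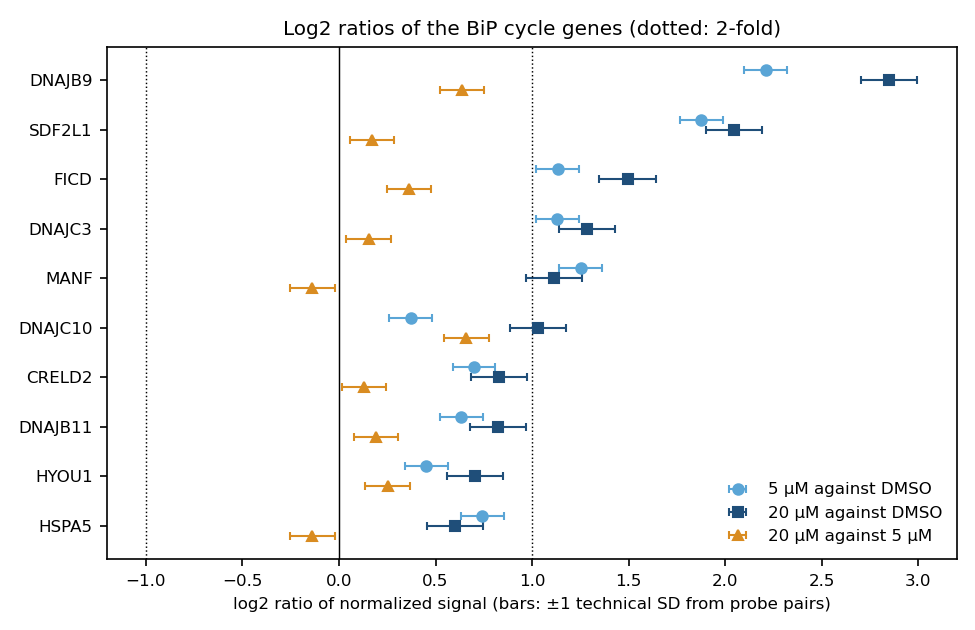
Log2 ratio of normalized signal (horizontal axis) for each gene (rows) at 5 µM and 20 µM against DMSO and at 20 against 5 µM; 1 array per group, bars are ±1 technical SD from probe pairs, dotted lines mark 2-fold. DNAJB9 and SDF2L1 lie farthest right for both doses on this scale, while FICD lies above SDF2L1 in the authors' table (2.07 and 1.91 at 5 µM, 2.59 and 2.15 at 20 µM); the ratios between the doses lie between -0.14 and 0.66.

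Between the doses, 8 of the 10 genes were higher at 20 than at 5 µM, against 49.5% of all genes, and none of them by 2-fold. Over the 16036 genes measured at both doses, 21 were 2-fold or more higher, or 0.131%, and 15 lower, or 0.0935%. The median log2 ratio of the 10 was 0.18, against -0.0011 for all genes. DNAJC10 at 0.66 and DNAJB9 at 0.64 were the highest. FICD at 0.36 and HYOU1 at 0.25 were also beyond 2 technical SDs of 0, but HYOU1 was not with the SD of 0.13 from the brighter pairs. The other 6 lay within them: DNAJB11 at 0.19, SDF2L1 at 0.17, DNAJC3 at 0.15, CRELD2 at 0.13, and MANF and HSPA5 at -0.14 each. Without scaling, the MANF signal above blank at 20 µM was 1.01 times that at 5 µM and the HSPA5 signal 0.978 times, so MANF has no firm direction between the doses.

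**Figure D4:**
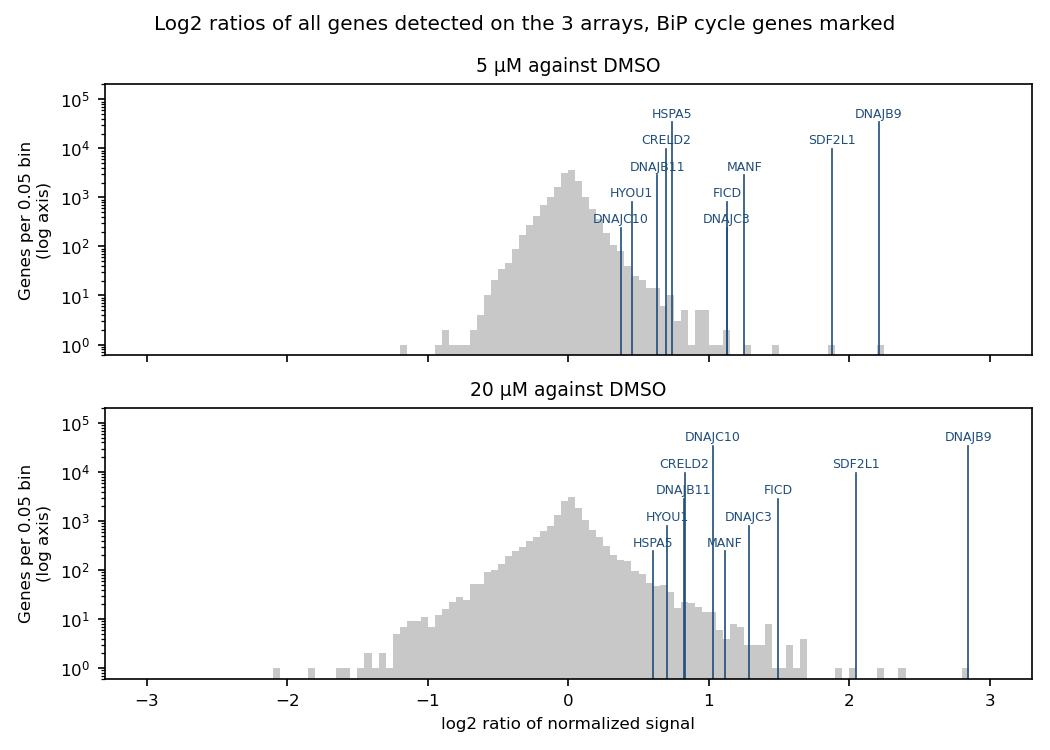
Number of genes per bin of log2 ratio (vertical axis, log scale; horizontal axis, log2 ratio of normalized signal) for 5 µM and 20 µM against DMSO, over 15920 genes detected on the 3 arrays, with the 10 genes marked by lines whose height has no meaning. All 10 lie right of 0 at both doses, and DNAJB9 is the rightmost gene in both panels.

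Other HSP70 and J-domain genes of the ER, with paralogs of the 10, were spread on both sides of DMSO. Their log2 ratios ran from -0.36 to 1.62 at 20 µM and from -0.28 to 0.92 at 5 µM. Of 12 such genes, all detected, 9 had ratios above 0 at 20 µM, against 52.8% of all genes. At least 2-fold higher at 20 µM was 1 of the 12, against 0.442% of all genes, and their median log2 ratio was 0.19. That median was 0.13 over the mean of all probes and 0.33 with a filter at 2 times the detection limit. At 5 µM the median was 0.025, and -0.051 under median scaling. DNAJC25, a J-domain membrane protein, read 173, 259 and 439 and had log2 ratios of 0.92 at 5 µM and 1.62 at 20 µM. HSPA13, an HSP70 relative of the ER, read 519, 648 and 854, with 0.68 and 0.93. SEC63, the J-domain protein of the translocon, read 634, 570 and 805. Its ratio of 0.18 at 5 µM turned to -0.031 under median scaling, and at 20 µM it was 0.54.

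The closest relatives of several of the 10 genes had lower ratios than their partners. SDF2, the paralog of SDF2L1, read 592 in DMSO, 393 at 5 µM and 415 at 20 µM, with log2 ratios of -0.28 and -0.36. CDNF, the paralog of MANF, read 114, 105 and 111, with ratios of 0.000047 and 0.061. The CDNF spot was dim, and the offset understates differences of such spots. In the authors' table its log2 ratio at 20 µM was 0.17. CRELD1, the paralog of CRELD2, had 0.24 and 0.23, but its other probe gave -0.067 and -0.046. The cytosolic HSPA8 had -0.11 and 0.17, and the cytosolic HSPH1, a relative of HYOU1, had -0.25 and -0.31. These differences between genes were not tested. Among 32 HSP70, HSP110, J-domain and exchange factor genes of the cytosol, nucleus and mitochondria, none was 2-fold apart from DMSO at either dose. At 20 µM, 0.442% of all genes were at least 2-fold higher and 0.324% lower, and at 5 µM 0.0498% and 0.00622%. With shares that small, a count of 0 among 32 genes says little. The median of the 32 was 0.057 at 5 µM, which turned to -0.076 under median scaling. At 20 µM it was 0.17, or 0.076 under median scaling. HSPA1A at 0.74, DNAJB4 at 0.69 and DNAJC2 at 0.64 were the members farthest from 0 at 20 µM. Another probe of HSPA1A gave 0.44 and another of DNAJB4 gave 0.060.

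The rest of the ER response was followed through 3 further lists. Of 16 other folding factors, 15 were detected in DMSO and at 20 µM, and none was 2-fold apart. Their median log2 ratio was 0.23 at 5 µM and 0.31 at 20 µM, and 0.073 and 0.18 under median scaling. At 20 µM the members farthest from 0 were the oxidase gene ERO1A at 0.59, ERP44 at 0.59 and PDIA4 at 0.55. Another probe of ERO1A gave 0.25. Of 9 genes of ER-associated degradation, 3 passed 2-fold above DMSO at 20 µM and 1 did at 5 µM, with median log2 ratios of 0.53 and 0.41. The authors' table put the 20 µM median at 1.14, and the filter at 2 times the detection limit put the 5 µM median at 0.83. HERPUD1 read 2390, 5080 and 6279, SELENOS had a log2 ratio of 1.40 and DERL2 of 1.06 at 20 µM. Median scaling took DERL2 to 0.97, under 2-fold. Of 13 sensors and transcription factors, 2 passed 2-fold above DMSO at 20 µM and none did at 5 µM. These were DDIT3, which encodes CHOP, at 1.31, and EIF2AK3, which encodes PERK, at 1.02. EIF2AK3 was at 0.88 without background correction. ATF6 followed at 0.69. The median of this list was 0.54 at 20 µM, or 0.34 over the mean of all probes, and 0.14 at 5 µM, the latter turning to -0.021 under median scaling.

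**Figure D5:**
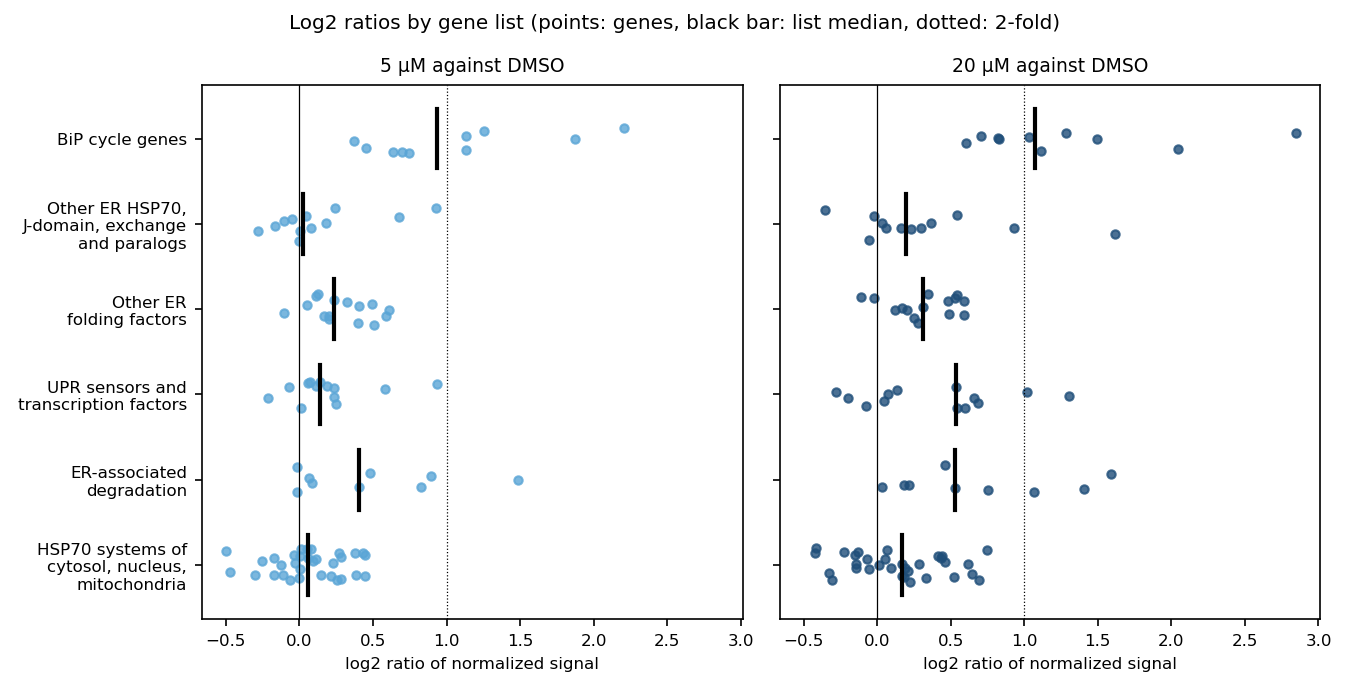
Log2 ratios of normalized signal (horizontal axes) for the genes of 6 lists (rows) at 5 µM and 20 µM against DMSO; points are genes, black bars list medians, the dotted line 2-fold, 1 array per group. The 10 BiP cycle genes, chosen with these values known, have medians of 0.94 and 1.07, and the 32 genes of other compartments 0.057 and 0.17.

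Likeness to DNAJB9 and to HSPA5 was measured as the distance between pairs of log2 ratios, for 5 and 20 µM against DMSO, over 15920 genes and 3 arrays. DNAJB9 had the highest ratio at both doses, so distant neighbours are partly given by its place at the edge. No gene outside the 10 came near it. The closest was HERPUD1 at a distance of 1.45, then NIBAN1 at 1.47, SQSTM1 at 1.53, SEC24D at 1.62, ZFAND2A at 1.73 and DNAJC25 at 1.78. Around HSPA5 the field was crowded, with RPL36AL at 0.099, CDK2AP2 at 0.10, TRIM27 at 0.10, POP7 at 0.11, SURF6 at 0.11 and HSP90AB1 at 0.13. These distances are of the size of the technical SD, so those genes cannot be ordered. With 3 arrays, a like pair of ratios says nothing of a shared cause.

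The annotation limits what some spots can stand for. The platform assigned the spots of DNAJC10, CRELD2 and HYOU1 by the record of a non-coding transcript variant, 3 of 10, and those of DNAJC3 and FICD by a predicted coding transcript. The other 5 were assigned by a curated coding transcript. The probe sequences were not used here, so whether a spot also reads the main coding transcript was not tested. Each of the 10 genes had a single spot, so none of the 10 ratios could be set against another probe of the same gene.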

How the data were processed

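HT29 RNA from DMSO, 5 µM and 20 µM cultures was read on 1 array each. Per the file headers, the deposited scanner files hold the median intensity of each spot on a linear scale, without background taken off, from 3 scanner gains; the extraction software is not stated there. The value table the authors deposited holds an intensity per probe on a linear scale, with a median of 25 on each array; how it was made is not stated by the labels.

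Spot signals were corrected with normexp (offset 50) in limma 3.58.1 under R 4.3.3, taken to log2 and quantile normalized over 24460 gene probes. A spot was detected above the mean plus 2 SD of 480 blank and negative control spots, trimmed by 5% at each end. Of these probes, 21707 had 1 gene symbol in the platform annotation, 0 several and 2753 none; 21675 matched a current gene of GRCh38.p14. For a gene with several probes, the one detected on most arrays and then brightest was used. Python 3.11.15, numpy 2.4.6, pandas 2.3.3 and matplotlib 3.10.9 were used. The steps were tested on simulated data. With 1 array per group no test was made, and precision is limited by how few arrays there are.

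The genes and lists were chosen with earlier results of these data known. All 10 genes are named, with up to 3 of each other list by size at 20 µM, 5 paralogs and the 6 genes nearest to DNAJB9 and to HSPA5. Alternatives were median scaling, no background correction, an offset of 16, no detection filter, a filter at 2 times the limit, the authors' table as log2(value + 1) and the mean of all probes. Protein features planned in the design were not analysed here.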

Additional observations from a re-analysis of the deposited data

How the results depend on the processing

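Under the 7 other settings named with the methods, each gene that could be measured stayed above DMSO at both doses. The filter at 2 times the limit left out HYOU1 and FICD and by its nature changed no other ratio. Dropping the detection filter or taking the mean of all probes could not change a ratio either. Each gene had a single spot, and it was detected on every array. Those settings are therefore no check on the ratios of these genes, and only the remaining ones could move them. The count at least 2-fold higher stayed within 1.5 times of 6 at 20 µM and of 5 at 5 µM, and was 0 between the doses. Their median log2 ratio at 5 µM, 0.94, became 0.78 under median scaling, 0.80 without background correction, 1.07 with an offset of 16 and 1.10 in the authors' table. Over all genes, the split of higher against lower moved from 71 and 52 at 20 µM to 52 and 74 under median scaling and 173 and 210 in the authors' table. At 5 µM it moved from 8 and 1 to 5 and 4, and 28 and 21, and between the doses from 21 and 15 to 36 and 11, and 93 and 65. With an offset of 16 these were 114 and 94, 19 and 2, and 39 and 31. Without background correction 33 were lower at 20 µM.

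Taking each spot's scanner background off instead was tried after seeing the data. That column follows the spot's own signal, with a Spearman correlation across spots of 0.967 in DMSO. With it, 3 genes passed 2-fold at 20 µM and 1 between the doses, and the medians were 0.20, 0.45 at 5 µM and -0.074 between the doses, where the sign turned. Over all genes it gave 430 higher and 466 lower at 20 µM, 271 and 389 at 5 µM, and 412 and 399 between the doses. SDF2L1 at 5 µM turned to -1.56, DNAJC10 at 20 µM to -0.58 and FICD at 20 µM to -0.022. CRELD2, under 2-fold before, turned to -0.40 at 5 µM and -0.54 at 20 µM. The SDF2L1 background read 334 in DMSO and 1771 at 5 µM. No paired analysis was possible because each group has 1 array.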

Other observations

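A second pair of genes had overlapping promoter windows with an ERSE. The windows of SERP1, which protects newly made membrane proteins under ER stress, and EIF2A, a translation initiation factor, overlapped by 210 bases on opposite strands. SERP1 read 1480 in DMSO, 2016 at 5 µM and 3061 at 20 µM, with log2 ratios of 0.81 and 1.27, and the mean over its probes gave 0.43 and 0.64. EIF2A read 2250, 1880 and 2345, with ratios of 0.12 and 0.27, the former turning to -0.14 under median scaling. As with CRELD2 and ALG12, one gene of the pair had a higher ratio than the other at both doses, by the probe used. SERP1 had 2 probes, and its means show that the other lay near DMSO. EIF2A also had 2 probes, and their mean at 20 µM was 0.125, so its other probe was lower as well. By its other probe SERP1 did not stand above the EIF2A ratios given here, so the order of this pair depends on the probe. The other probes of the pair were not compared with each other. The pairs were found after the values were seen, and the differences were not tested.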
